A study of Homo sapiens with 16 samples.

Results

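Integrins are cell surface receptors built from 1 alpha and 1 beta subunit, and this account covers the mRNAs of 8 of their genes, ITGA2, ITGA3, ITGA5, ITGA6, ITGAV, ITGB1, ITGB3 and ITGB5, chosen by gene symbol from the 60669 genes of each deposited table. Each symbol matched 1 row in each table. The human genome has 26 integrin subunit genes, and the other 18 are summarised below. The alpha subunit largely sets which matrix protein is bound, and the beta subunit carries the short tail that links the receptor to talin, kindlin and the actin cytoskeleton. ITGB1 is the common partner of ITGA2, a collagen receptor, of ITGA3 and ITGA6, which bind laminins, and of ITGA5, the fibronectin receptor. Among the 8, ITGAV pairs with ITGB1, ITGB3 or ITGB5, and its receptors bind vitronectin, fibronectin and other proteins through a short arginine-glycine-aspartate motif. Microglia are known above all for the leukocyte integrins, built on ITGB2, which are not among the 8.

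RNA came from HMC3 cells, a human line that the labels call microglial, wild type (WT) or with METTL3 knockout (KO). METTL3 is the catalytic subunit of the enzyme that writes N6-methyladenosine (m6A) on RNA. No drug or time course is given, and the labels do not say how the knockout was made, whether the knockout cells are 1 clone or whether replicates were separate cultures, so p-values measure the spread between these libraries, which may be technical. Poly(A) RNA amplified by Smart-seq2 gave 5 libraries per genotype, known here from 1 comparison in the authors' deposited table, and rRNA depletion with a directional kit gave 3 libraries per genotype with values for each library. These values are TPM, each gene's length-corrected part of a library's transcripts.

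Over 10120 genes with whole recovered reads in both, knockout-labelled libraries 1 and 2 agreed within sampling noise (chi-square per degree of freedom 1.02, p = 0.065), while the other pairs within a genotype gave 1.16 to 1.53. This depends on which genes are taken. Over all 11410 genes with a length, some of whose reads had to be rounded, the chi-square per degree of freedom of the pair was 1.07 with a p of 2e-07. The other pairs then gave 1.22 to 1.61. The pair was averaged and counted as 1 sample, which leaves 3 wild-type and 2 knockout-labelled samples. With all 6 libraries kept as separate samples 4 of the 8 genes passed the test described below, as with the pair averaged. That fit called 6880 of all 14789 tested genes, against 5220 with the pair averaged. The 4 include ITGA2, which entered the test only through the group in which it is high, so the count is no support for the averaging. Depth, recovered from the steps of the TPM values, was 266157 to 487272 reads in the wild type and 512627 to 1267171 reads in the knockout-labelled libraries, and the 8 genes together held 281 to 1844 reads per library. METTL3 itself stood at 25.4 to 31.6 TPM in the wild type and at 39.2 to 42.7 TPM in the libraries labelled knockout (limma adjusted p = 0.106), so its mRNA does not check the label and "knockout-labelled" is used throughout. Of 11 microglial markers 8 were listed at 0 in all 6 libraries, among them ITGAM, AIF1, PTPRC, CX3CR1, P2RY12 and TMEM119, and the 11 together summed to 0 to 6.47 TPM in the wild type and 0.532 to 3.71 TPM in the knockout-labelled libraries. The summed markers of fibroblasts and pericytes, led by COL1A1, went from 10355 to 12827 TPM down to 1160 to 1302 TPM. Of the 4 of its 8 genes that were tested 3 fell and 1 rose, THY1 (log2 change 1.05, limma adjusted p = 0.00256). Of all tested genes 12.4% were called lower and 22.9% higher. For poly(A) RNA, 2 of these markers were higher and 1 lower at 0.05 among 5 with an adjusted p in the authors' deposited table. COL1A1 (-0.79) was lower there, and COL1A2 (0.30) and THY1 (0.58) were higher. PDGFRB was at -0.05 and RGS5 at 0.99, and the median of the 5 was 0.30. The fall of the summed markers is thus shown for rRNA-depleted RNA only. Of 3 epithelial markers KRT18 alone made up nearly all of the sum, with a wild-type mean of 719 TPM and a knockout-labelled mean of 323 TPM, while EPCAM and CDH1 had 0 or 1 read in each library. The astrocyte, endothelial and platelet markers each summed to 5.10 TPM or less in every library. The part of these markers in the results below was not tested, and in bulk RNA fewer cells of a type and less RNA per cell cannot be told apart.

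Sequences are shown for the genes on which the results turn: ITGB1, ITGA5 and ITGA6, which rose in the rRNA-depleted libraries, and ITGAV, which did not pass the test. RefSeq promoter windows on GRCh38.p14, each 300 bases from 250 before to 50 after an annotated start, were found for 6 of the 8 genes (ITGA2, ITGA5, ITGA6, ITGAV, ITGB1 and ITGB5). Capitals mark matches on either strand to GGGCGG (the GC box), to CCAAT (the CCAAT box), to TGANTCA (the AP-1 motif) and to TATAAA (the TATA box). None of the marked matches in these 4 windows overlapped another.
ITGB1 promoter (chr10:32958181-32958480, minus strand): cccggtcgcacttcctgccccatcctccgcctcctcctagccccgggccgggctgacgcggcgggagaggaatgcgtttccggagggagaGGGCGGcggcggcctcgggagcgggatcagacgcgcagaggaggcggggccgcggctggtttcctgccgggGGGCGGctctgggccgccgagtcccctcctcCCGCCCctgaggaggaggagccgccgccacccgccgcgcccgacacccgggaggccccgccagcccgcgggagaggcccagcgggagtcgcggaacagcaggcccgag
ITGA5 promoter (chr12:54419217-54419516, minus strand): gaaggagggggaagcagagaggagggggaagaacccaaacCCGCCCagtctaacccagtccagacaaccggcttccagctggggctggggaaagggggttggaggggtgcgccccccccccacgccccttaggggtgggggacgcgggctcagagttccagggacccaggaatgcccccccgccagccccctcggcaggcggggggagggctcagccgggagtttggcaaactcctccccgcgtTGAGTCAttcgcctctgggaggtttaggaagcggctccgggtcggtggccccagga
ITGA6 promoter (chr2:172427336-172427635, plus strand): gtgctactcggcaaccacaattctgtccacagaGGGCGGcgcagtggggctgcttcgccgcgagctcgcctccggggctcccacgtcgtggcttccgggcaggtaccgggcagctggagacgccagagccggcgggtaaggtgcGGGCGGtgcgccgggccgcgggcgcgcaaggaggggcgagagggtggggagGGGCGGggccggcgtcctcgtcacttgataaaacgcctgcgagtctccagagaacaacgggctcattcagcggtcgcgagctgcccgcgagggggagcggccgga
ITGAV promoter (chr2:186589806-186590105, plus strand): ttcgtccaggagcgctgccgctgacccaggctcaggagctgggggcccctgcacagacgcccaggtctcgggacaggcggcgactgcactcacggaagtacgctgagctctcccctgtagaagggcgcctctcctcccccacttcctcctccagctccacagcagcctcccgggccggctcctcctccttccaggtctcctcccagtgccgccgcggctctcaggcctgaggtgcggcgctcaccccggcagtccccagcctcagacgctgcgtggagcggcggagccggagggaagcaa
The ITGB1 window held 3 GC boxes, the ITGA6 window 3 and the ITGA5 window 1, while the ITGAV window held 0. Among genes whose windows are not printed, ITGB5, which did not pass the test, had 2, 2 and 3 in its windows, and ITGA2 had 4. The boxes thus do not set the genes that rose apart from those that did not. A GC box was found in 45.0% of all 35116 RefSeq windows. The ITGA5 window also held 1 AP-1 match, a motif found in 7.71% of windows, and none of the 4 windows held CCAAT or TATAAA, found in 34.6% and 11.5% of windows. ITGB1, ITGA6 and ITGAV each have a second annotated start, whose window is not printed. That of ITGB1 held 2 CCAAT and 3 TATAAA matches and 0 GC boxes. That of ITGA6 held 1 TATAAA match and 1 GC box, and that of ITGAV held 0 of the motifs. Neither ITGB1 window holds the start of the main GENCODE 29 transcript used below. These matches describe letters only and say nothing of whether a factor binds there.

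The second set of sequences concerns m6A, since METTL3 acts on transcripts. GGACT is the DNA spelling of a core motif that METTL3 favours. For each gene the GGACT nearest to the stop codon of the main GENCODE 29 transcript is given in capitals with 10 bases on each side, for ITGB1, ITGA5 and ITGA6 and for ITGB5, which carried the most sites.
ITGB1 transcript site: ttcatgccagGGACTgacaaaagac
ITGA5 transcript site: catgccacaaGGACTtcctgtccag
ITGA6 transcript site: caatccctgaGGACTgatttcagag
ITGB5 transcript site: atggcactgtGGACTgatgtttcct
The sites of ITGB1, ITGA5 and ITGA6 start 181, 362 and 278 bases after the last base of the stop codon, and that of ITGB5 starts 6 bases before it and runs into the stop codon. Searched on the transcript strand only, GGACT occurred 4 times in ITGB1, 7 times in ITGA5, 3 times each in ITGA6 and ITGA2, 6 times each in ITGA3 and ITGAV, 4 times in ITGB3 and 9 times in ITGB5. Per kilobase this was 1.06 for ITGB1, 1.58 for ITGA5, 0.534 for ITGA6, 0.853 for ITGAV, 1.23 for ITGA3, 2.06 for ITGB5, 1.001 for ITGB3 and 0.381 for ITGA2, against a median of 0.901 over tested genes. At least 1 GGACT was present in 85.2% of tested genes. ITGB1 and ITGA5 thus lay above the median, and ITGA6 and ITGA2 below it. No methylation was measured in the files used here.

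In the rRNA-depleted libraries the fold changes below are log2 changes on the log2(TPM + 1) scale, which understates changes of low genes, tested with limma across 14789 genes with Benjamini-Hochberg adjustment at 0.05. All 8 subunits passed the filter of at least 1 TPM in at least 3 libraries. ITGA2 reached 1 TPM in knockout-labelled libraries only, and ITGB3 in these and in wild-type library 2. Neither would have passed without the knockout-labelled group. ITGB1, ITGA5 and ITGA6 were higher in the knockout-labelled samples past the threshold. ITGA2 makes a count of 4 of the 8, but it could enter the test only through the group in which it is high and is no support for the others. Of the 8, 0 were lower, where 22.9% of all tested genes were called higher, 12.4% lower and 35.3% in either direction. The median log2 change over the 8 subunits was 1.45, between ITGA5 (1.35) and ITGB3 (1.54). ITGB3 and ITGA2 (1.70) could not have entered the test without the group in which they are high, so this median does not describe the family. Over all genes the median was 0.41. That shift of all genes fell to 0.11 with median ratio scaling, under which 2362 genes were higher and 2499 lower instead of 3382 and 1838. Each change is therefore also given relative to the median of all genes. For ITGA2, ITGAV and ITGB3 this relative change was 1.28, -0.23 and 1.13. The groups did not overlap for 5 of the 8, ITGB1, ITGA5, ITGA6 and ITGA2 (higher) and ITGB5 (lower), where 62.7% of all genes had groups that did not overlap and 41.1% had them apart and higher.

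**Figure D1:**
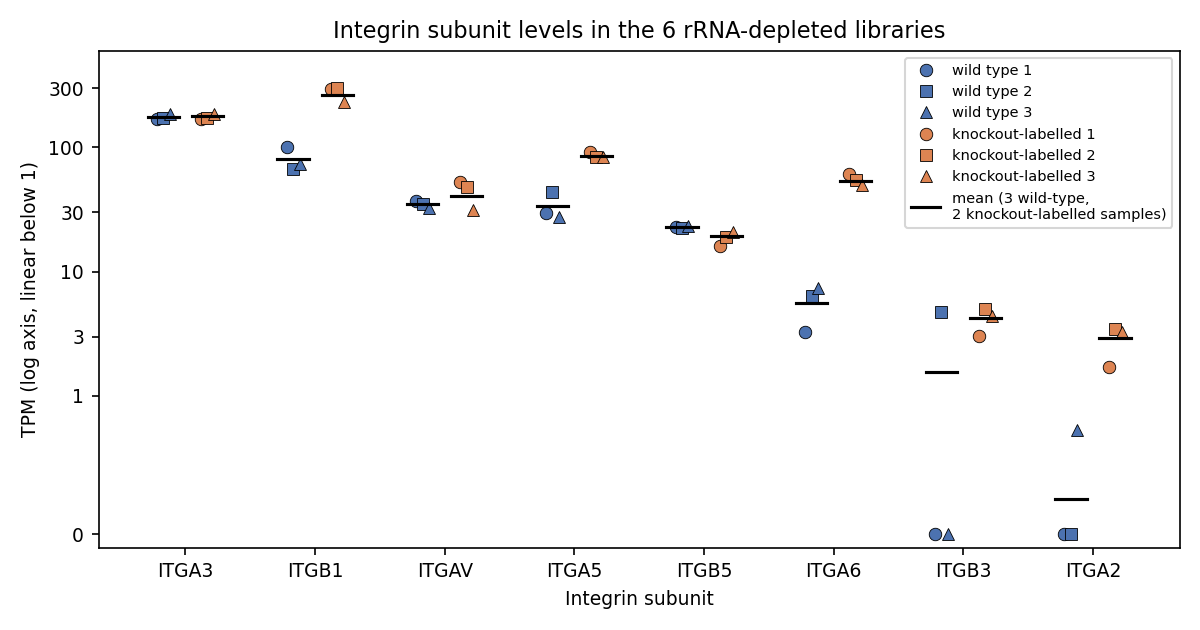
Levels of the 8 integrin subunits in TPM on a log axis that is linear below 1, in each of the 3 wild-type and 3 knockout-labelled rRNA-depleted libraries, with the mean of each genotype as a bar. ITGA3 lies at 169 to 186 TPM in all 6 libraries, while ITGB1, ITGA5 and ITGA6 are separated by genotype.

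ITGB1, the beta subunit shared by most of these receptors (ENSG00000150093, chromosome 10, 32900319 to 33005792, minus strand of GRCh38), gave wild-type values of 101, 67.1 and 73.7 TPM (libraries 1, 2 and 3) and knockout-labelled values of 293, 300.3 and 233 TPM (libraries 1, 2 and 3). Every knockout-labelled library was above every wild-type library, with library 3 the lowest of them. The wild-type mean was 80.7 ± 18.1 TPM (SD, n = 3) and the knockout-labelled mean 265 ± 45.0 TPM (SD, n = 2). The log2 change was 1.71 (SE 0.22, limma adjusted p = 0.00492), or 1.30 relative to all genes, from 199 wild-type and 1402 knockout-labelled reads. The call was lost without knockout-labelled library 3, at an adjusted p of 0.059 and a log2 change of 1.89, when the arm rests on 1 averaged sample that is assumed to vary like the wild type. The largest adjusted p of its other alternatives was 0.0185. Of the tested genes with a mean of at least 5 TPM, those whose profile over the 6 libraries lay nearest to that of ITGB1 by Euclidean distance were PDIA6, a protein disulfide isomerase, SEC31A, a coat protein of vesicles that leave the endoplasmic reticulum, and PITRM1, a mitochondrial peptidase. Their distances on the log2 scale were 0.187, 0.190 and 0.192, over 11863 genes searched, and say nothing of shared control.

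ITGA5, the alpha subunit of the fibronectin receptor (ENSG00000161638, chromosome 12, 54395261 to 54419460, minus strand), had 29.9, 43.7 and 27.7 TPM in the wild type and 92.0, 83.9 and 83.5 TPM in the knockout-labelled libraries. The groups did not overlap, and wild-type library 2 was the highest of its group. The wild-type mean was 33.8 ± 8.69 TPM (SD, n = 3) and the knockout-labelled mean 85.7 ± 3.12 TPM (SD, n = 2). On the log2 scale ITGA5 rose by 1.35 (SE 0.24, limma adjusted p = 0.0114), or 0.94 relative to all genes. Its adjusted p was 0.109 without knockout-labelled library 3, with a log2 change of 1.38.

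ITGA6, an alpha subunit of laminin receptors (ENSG00000091409, chromosome 2, 172427354 to 172506282, plus strand), changed most of the 8 on this scale. It had 3.25, 6.34 and 7.33 TPM in the wild type, from 3, 4 and 8 reads, and 61.6, 54.9 and 49.4 TPM in the knockout-labelled libraries, from 120, 131 and 50 reads. Every knockout-labelled library was far above the wild type, whose values rest on few reads. The wild-type mean was 5.64 ± 2.13 TPM (SD, n = 3) and the knockout-labelled mean 53.8 ± 6.24 TPM (SD, n = 2), 9.55-fold apart. The ratio of pooled reads per unit of depth was 9.93, with an exact 95% interval of 5.92 to 17.96 that covers counting error only. The log2 change was 3.10 (SE 0.39, limma adjusted p = 0.00478), or 2.69 relative to all genes, and the adjusted p was 0.0727 without knockout-labelled library 3, with a log2 change of 3.21.

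ITGA2, an alpha subunit of collagen receptors (ENSG00000164171, chromosome 5, 52989326 to 53094779, plus strand), was at 0, 0 and 0.757 TPM in the wild type and 1.69, 3.46 and 3.27 TPM in the knockout-labelled libraries. These values rest on 1 wild-type read and 18 knockout-labelled reads. The ratio of pooled reads per unit of depth was 8.91, with an exact 95% interval of 1.41 to 371 for counting error. Its limma adjusted p was 0.0379, but over the alternatives it ranged from 0.0194 to 0.158 and lost the threshold in 10 of 17, among them leaving out wild-type library 1 or 2 or knockout-labelled library 2 or 3. ITGA2 was not tested when a mean of at least 5 reads was asked for, a setting chosen after the data were seen.

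ITGA3, an alpha subunit of laminin receptors (ENSG00000005884, chromosome 17, 50055968 to 50090481, plus strand), was the most abundant subunit of the wild type. Its values were 169.1, 171 and 186 TPM in the wild type and 168.9, 172 and 185 TPM in the knockout-labelled libraries, so the groups overlapped almost fully. The log2 change was 0.02 (SE 0.11, 95% interval -0.25 to 0.29, limma adjusted p = 0.903), or -0.39 relative to all genes. Its direction turned with the scaling: it was -0.33 with median ratio scaling (limma adjusted p = 0.0811), -0.29 in voom on recovered reads (adjusted p = 0.0148) and 0.60 with the trend with GC content removed (limma adjusted p = 0.0145).

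ITGAV, the alpha subunit of the vitronectin receptors (ENSG00000138448, chromosome 2, 186590065 to 186680901, plus strand), had 37.1, 35.3 and 32.8 TPM in the wild type and 52.7, 47.7 and 31.5 TPM in the knockout-labelled libraries. Knockout-labelled library 3 lay below all 3 wild-type libraries and libraries 1 and 2 above them. The log2 change was 0.18 (SE 0.24, 95% interval -0.44 to 0.79, limma adjusted p = 0.601), and 0.51 without knockout-labelled library 3. Of its beta partners among the 8, ITGB5 (ENSG00000082781, chromosome 3, 124761948 to 124901418, minus strand) had 23.1, 22.5 and 23.2 TPM in the wild type and 16.1, 19.1 and 21.0 TPM in the knockout-labelled libraries. All 3 knockout-labelled values were below the wild type, but the log2 change of -0.24 (SE 0.22, 95% interval -0.78 to 0.30) did not pass the test (limma adjusted p = 0.426). With the GC trend removed it was 0.20. Relative to all genes it was -0.65, and -0.27 with the GC trend removed.

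ITGB3, a beta partner of ITGAV (ENSG00000259207, chromosome 17, 47253846 to 47311816, plus strand), was near the limit of detection, with 0, 4.71 and 0 TPM in the wild type and 3.05, 4.99 and 4.41 TPM in the knockout-labelled libraries. Only 2 wild-type and 15 knockout-labelled reads were recovered. The ratio of pooled reads per unit of depth was 3.71, with an exact 95% interval of 0.863 to 33.4, and the limma adjusted p was 0.237, so a difference was not detectable at this depth. Both wild-type reads came from library 2, without which the limma adjusted p was 0.0224. ITGB3 shares 51.6% of its exon length on the same strand with AC068234.1, a gene listed at 0 in all 6 libraries. ITGA5, ITGA6, ITGAV and ITGB1 share at most 2.66% of their exon length with any 1 antisense gene.

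The order of the subunits by level differed between the genotypes. In the wild type it was ITGA3, ITGB1, ITGAV, ITGA5, ITGB5, ITGA6, ITGB3 and ITGA2, and the ranges over libraries overlapped between ITGAV and ITGA5, between ITGA6 and ITGB3 and between ITGB3 and ITGA2. In the knockout-labelled libraries ITGB1 was first, above ITGA3, and ITGA5 and ITGA6 stood above ITGAV, with overlapping ranges for ITGA6 and ITGAV and for ITGB3 and ITGA2. The ratio of ITGB1 to ITGA3, which a single factor per library does not change, was 0.599, 0.393 and 0.396 in the wild type and 1.74, 1.74 and 1.26 in the knockout-labelled libraries. It does depend on GC content: the log2 change of ITGB1 exceeded that of ITGA3 by 1.70, but by 0.49 with the GC trend removed. The shares below were not corrected for GC content.

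Shares within the 8 subunits separated the genotypes for some subunits and not for others. ITGB1 made up 27.9%, 19.1% and 21.0% of their summed TPM in the wild type and 42.5%, 43.7% and 38.1% in the knockout-labelled libraries. ITGA3 made up 46.5%, 48.8% and 53.0% in the wild type and 24.5%, 25.1% and 30.3% in the knockout-labelled libraries. The mean share of ITGA6 was 1.60% ± 0.623 (SD, n = 3) in the wild type and 8.28% ± 0.271 (SD, n = 2) in the knockout-labelled samples, and that of ITGB5 was 6.45% ± 0.134 (SD, n = 3) and 3.001% ± 0.622 (SD, n = 2). The share of ITGA5 overlapped between single libraries, at 8.22%, 12.5% and 7.86% in the wild type and 13.3%, 12.2% and 13.7% in the knockout-labelled libraries. With knockout-labelled libraries 1 and 2 averaged, at 12.8%, its groups did not overlap. The share of ITGB3 overlapped either way. The summed TPM of alpha over beta subunits was 1.92, 2.72 and 2.63 in the wild type and 1.21, 1.12 and 1.36 in the knockout-labelled libraries. For this ratio and for the shares of ITGB1, ITGA3, ITGA6, ITGB5, ITGAV and ITGA2 the groups did not overlap, also between single libraries. For each of these and for the share of ITGA5 the two-sided exact permutation p over samples was 0.2. That is the smallest that 3 against 2 samples allow, so none can pass 0.05. The mean share of ITGAV was 9.86% ± 0.468 (SD, n = 3) in the wild type and 6.22% ± 1.52 (SD, n = 2) in the knockout-labelled samples. The shares are parts of the same sum, and the mean TPM of ITGA3 itself was 175 in the wild type and 178 in the knockout-labelled samples. With shares taken over all 26 subunit genes the fall in the share of ITGA3 was 14.2 percentage points instead of 21.9. The 8 subunits held 75.3% to 77.0% of all integrin TPM in the wild type and 84.3% to 86.3% in the knockout-labelled libraries.

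**Figure D2:**
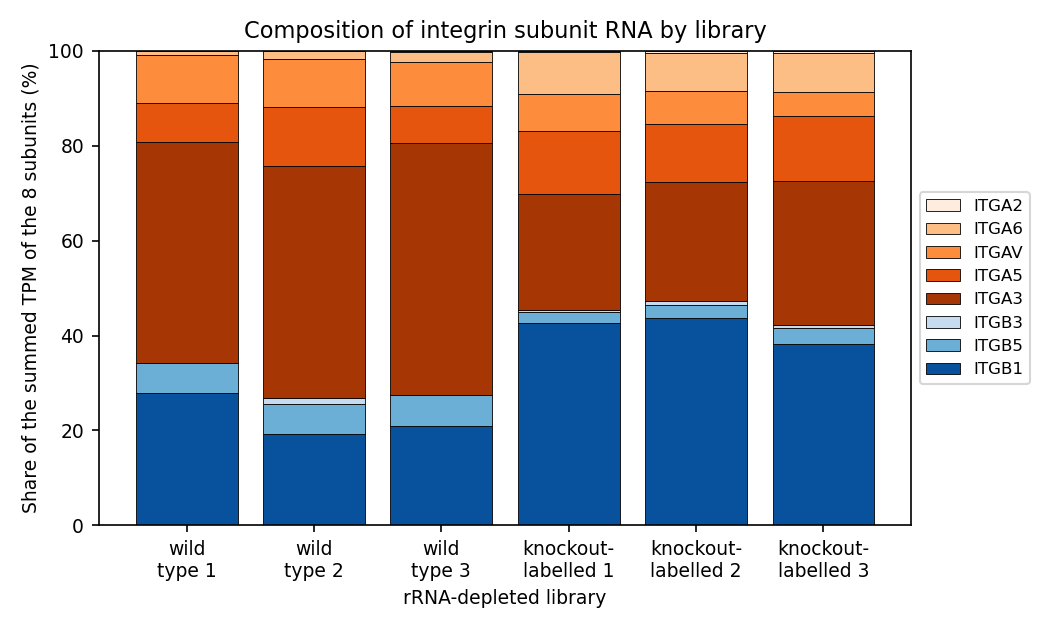
Stacked shares of the summed TPM of the 8 integrin subunits, in percent, for each rRNA-depleted library, with beta subunits in blue and alpha subunits in orange. ITGB1 takes 19.1% to 27.9% in the wild type and 38.1% to 43.7% in the knockout-labelled libraries, and ITGA3 the reverse order, 46.5% to 53.0% and 24.5% to 30.3%.

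Over all genes, GC-rich transcripts had lower log2 changes in the rRNA-depleted libraries (Spearman rho -0.37 across 14669 genes, which share the same libraries), from a median of 1.23 in the first of 10 bins of GC content to -0.44 in the last. The values of the subunits are therefore set beside those of genes of like GC content. ITGB1 (40.0% GC) changed by 1.71, where the median of its bin was 1.07, and ITGA6 (42.9% GC) changed by 3.10, where the median was 0.88. ITGA5, which is GC-rich (58.7%), changed by 1.35 where the median was -0.07. ITGAV, the subunit of lowest GC content (38.3%), changed by 0.18 where the median was 1.23. ITGA3 (60.9% GC) lay close to its bin, at 0.02 against -0.07. With the trend removed from each library, ITGB1 changed by 1.09 (limma adjusted p = 0.0133), ITGA5 by 1.84 (adjusted p = 0.00552) and ITGA6 by 2.65 (adjusted p = 0.00721), or 0.62, 1.37 and 2.18 relative to all genes. ITGAV was then at -0.55 (limma adjusted p = 0.0858), or -1.02 relative to all genes, a difference that was not itself tested.

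**Figure D3:**
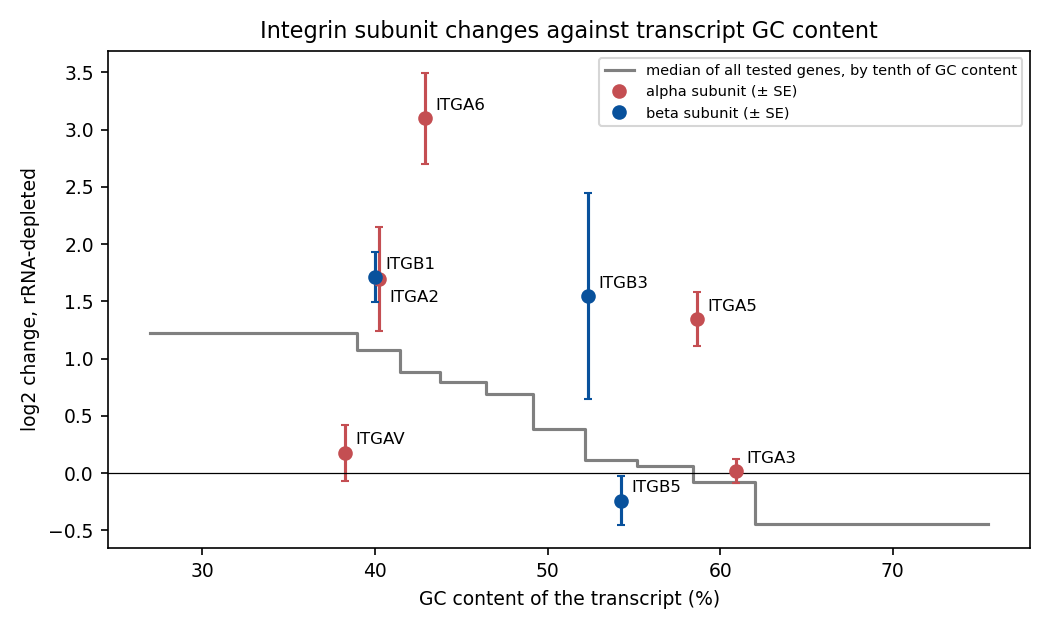
Log2 change of each integrin subunit in the rRNA-depleted libraries (± SE) against the GC content of its main transcript in percent, with the median of all tested genes in each of 10 bins of GC content as a grey line. ITGA6 and ITGA5 lie well above the line at 3.10 and 1.35, ITGA3 lies close to it, and ITGAV lies below it at 0.18.

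The poly(A) comparison asks whether the polyadenylated mRNAs differ between the genotypes. Its numerator is not stated, and a positive value is read here as higher in the knockout, since the table's name points to it and since 91.5% of 177 genes with large changes past the threshold in both library types then have the same sign. In the authors' deposited table all 8 subunits had an adjusted p, and 1 was under 0.05, where 19.9% of all 14009 genes with an adjusted p were, 9.55% higher and 10.3% lower. That subunit was ITGA3, lower by a log2 fold change of -0.32 (SE 0.12, adjusted p = 0.0377) in the authors' deposited table. ITGB1 had -0.14 (SE 0.06, adjusted p = 0.0547) in the authors' deposited table, with a 95% interval of -0.25 to -0.03 before adjustment. ITGA5 had 0.20 (SE 0.13, adjusted p = 0.315) and ITGA6 0.10 (SE 0.18, adjusted p = 0.757) in the authors' deposited table. ITGAV had 0.27 (SE 0.12, adjusted p = 0.111) in the authors' deposited table. ITGB5 (-0.36, SE 0.44), ITGB3 (-0.03, SE 0.995) and ITGA2 (1.09, SE 0.85) rest on mean normalized counts of 6.33, 1.72 and 2.90 in the authors' deposited table, and their adjusted p-values were 0.65, 0.991 and 0.416.

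The 2 library types gave different values for ITGB1 and ITGA6. The 95% interval of the ITGB1 log2 change was 1.16 to 2.27 there and -0.25 to -0.03 from the authors' deposited table. For ITGA6 it was 2.10 to 4.09 there and -0.25 to 0.45 from the authors' deposited table. Both pairs of intervals stayed apart relative to the median of all genes, at 0.75 to 1.86 and -0.27 to -0.05 for ITGB1 and at 1.69 to 3.68 and -0.27 to 0.44 for ITGA6, the second of each from the authors' deposited table. For ITGA5 the intervals were 0.75 to 1.94 there and -0.06 to 0.45 from the authors' deposited table. Relative to the median of all genes those of ITGA5 overlapped, at 0.34 to 1.53 and, from the authors' deposited table, -0.07 to 0.43. For ITGA3, ITGAV, ITGB5, ITGB3 and for ITGA2, which also passed the limma threshold, the intervals of the 2 types overlapped. The scales differ and the difference between library types was not tested.

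**Figure D4:**
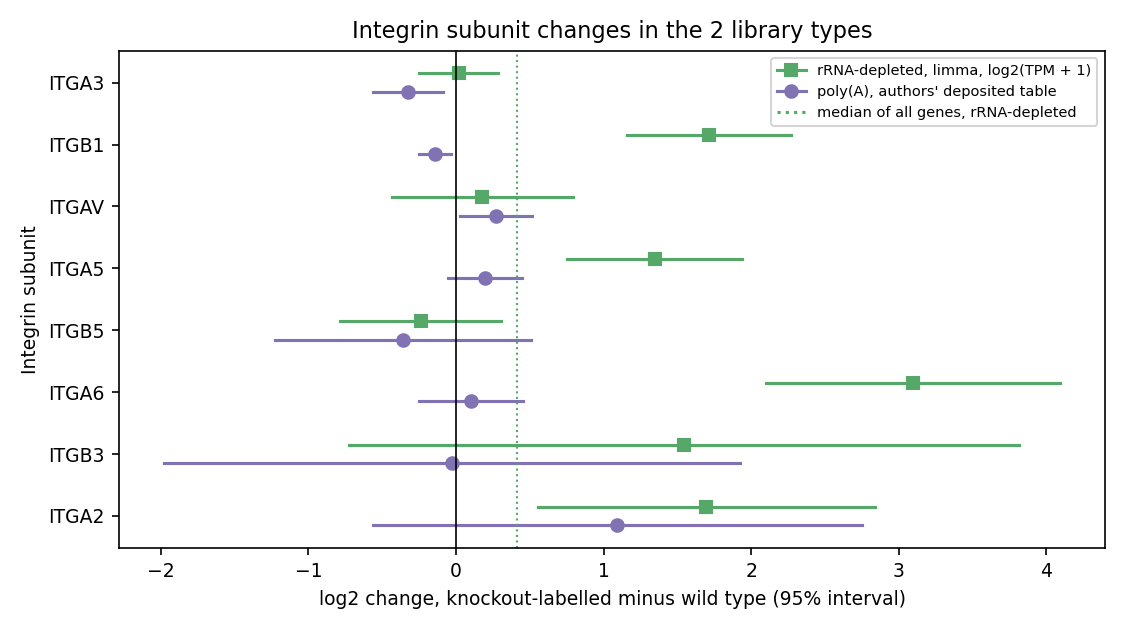
Log2 change of each integrin subunit, knockout-labelled minus wild type, with 95% intervals, from limma on the rRNA-depleted libraries (squares) and from the authors' deposited table for poly(A) libraries (circles), and the median of all genes at 0.41 as a dotted line. The 2 intervals are apart for ITGB1, ITGA5 and ITGA6 and overlap for the other 5 subunits, before the median of all genes is taken off.

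Levels between subunits differed by library type as well. Per kilobase of exon, the mean normalized count in the authors' deposited table was 256 for ITGB1, 26.8 for ITGA5, 15.7 for ITGAV, 11.98 for ITGA3, 10.5 for ITGA6, 0.982 for ITGB5, 0.391 for ITGB3 and 0.367 for ITGA2. ITGB1 thus stood 21.3 times above ITGA3 on that scale in the authors' deposited table, against 0.46 times in the wild type and 1.49 times in the knockout-labelled samples of the rRNA-depleted set. ITGB1 stood 260.1 times above ITGB5 on that scale in the authors' deposited table, against 3.52 and 13.7 times in the rRNA-depleted set. ITGA3 and ITGB5 have more GC in their transcripts (60.9% and 54.3%) than ITGB1 (40.0%), and the part of this in the ratios was not tested.

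Of the 18 other integrin subunits, 8 were tested in the rRNA-depleted libraries, with 1 higher and 0 lower past the limma threshold, against 22.9% and 12.4% of all genes, and a median log2 change of 0.49 against 0.41. That gene was ITGA11, a collagen receptor subunit that pairs with ITGB1, with a wild-type mean of 3.43 ± 0.708 TPM (SD, n = 3), a knockout-labelled mean of 17.1 ± 0.697 TPM (SD, n = 2) and a log2 rise of 2.05 (SE 0.39, limma adjusted p = 0.014). In the authors' deposited table ITGA11 was higher too, at 0.87 (SE 0.26, adjusted p = 0.0069). Past the threshold, 2 were higher and 2 lower among 9 with an adjusted p in the authors' deposited table, against 9.55% and 10.3% of all genes. Their median there was 0.29, against 0.02 for all genes. ITGA8, ITGAD, ITGAL, ITGAM and ITGB2 were listed at 0 in all 6 rRNA-depleted libraries.

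Among 24 matrix ligands, 21 were tested, with 3 higher and 5 lower past the limma threshold, against 22.9% and 12.4% of all genes, and a median log2 change of 0.09. FN1 (fibronectin, the ligand of the receptor made of ITGA5 and ITGB1) had a wild-type mean of 835 ± 34.3 TPM (SD, n = 3) and a knockout-labelled mean of 2191 ± 31.5 TPM (SD, n = 2). It rose by 1.39 on the log2 scale (SE 0.09, limma adjusted p = 0.00125), but was lower in the authors' deposited table, at -0.34 (SE 0.11, adjusted p = 0.0121). TNC (tenascin C) had a log2 rise of 0.97 and LAMC1 (a laminin chain) one of 0.75 in rRNA-depleted RNA. In the authors' deposited table TNC was lower, at -0.59 (SE 0.17, adjusted p = 0.00631), and LAMC1 had 0.35 (SE 0.18, adjusted p = 0.177). The collagen genes COL1A1, COL4A1 and COL1A2 fell most, with log2 changes of -3.70, -2.96 and -2.18 in the rRNA-depleted libraries. In the authors' deposited table COL1A1 (-0.79) and COL4A1 (-0.62) were lower and COL1A2 (0.30) higher past the threshold. Past the threshold, 2 ligands were higher and 8 lower among 22 with an adjusted p in the authors' deposited table. The shares of all genes there were 9.55% higher and 10.3% lower.

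Among 31 activators, adaptors and membrane partners of integrins, 30 were tested, with 10 higher and 1 lower past the limma threshold, against 22.9% and 12.4% of all genes, and a median log2 change of 0.30 against 0.41. CAV1 (caveolin, a membrane protein that associates with integrins) had a wild-type mean of 67.5 ± 12.8 TPM (SD, n = 3) and a knockout-labelled mean of 436 ± 28.4 TPM (SD, n = 2). It rose by 2.69 on the log2 scale (SE 0.19, limma adjusted p = 0.00129), while its value in the authors' deposited table was 0.01 (SE 0.05, adjusted p = 0.947). CD47 (a membrane partner of ITGAV receptors) had 3, 0 and 5 reads in the wild type and 48, 61 and 23 reads in the knockout-labelled libraries, and in the authors' deposited table it was higher too, at 0.83 (SE 0.10, adjusted p = 3.16e-13). ITGB3BP, named for its binding to the ITGB3 tail, had 0 or 1 read in each wild-type library and 14.7, 17.6 and 11.8 TPM in the knockout-labelled libraries. CD47 and ITGB3BP each had a wild-type library at 0, so both passed the filter only with knockout-labelled libraries, in which they are high. Their limma calls are no support for the others. BCAR1, a scaffold of focal adhesions, was the 1 that fell, by 0.42 on the log2 scale (limma adjusted p = 0.0464), and was 0.52 with the GC trend removed. Past the threshold, 2 of these genes were higher and 7 lower among 30 with an adjusted p in the authors' deposited table. Of all genes there, 9.55% were higher and 10.3% lower. Of the 11 genes named from these lists, FN1, COL1A1, COL4A1, COL1A2 and CAV1 passed the limma threshold in every alternative, and the largest adjusted p of the other 6 lay between 0.0836 and 0.205.

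**Figure D5:**
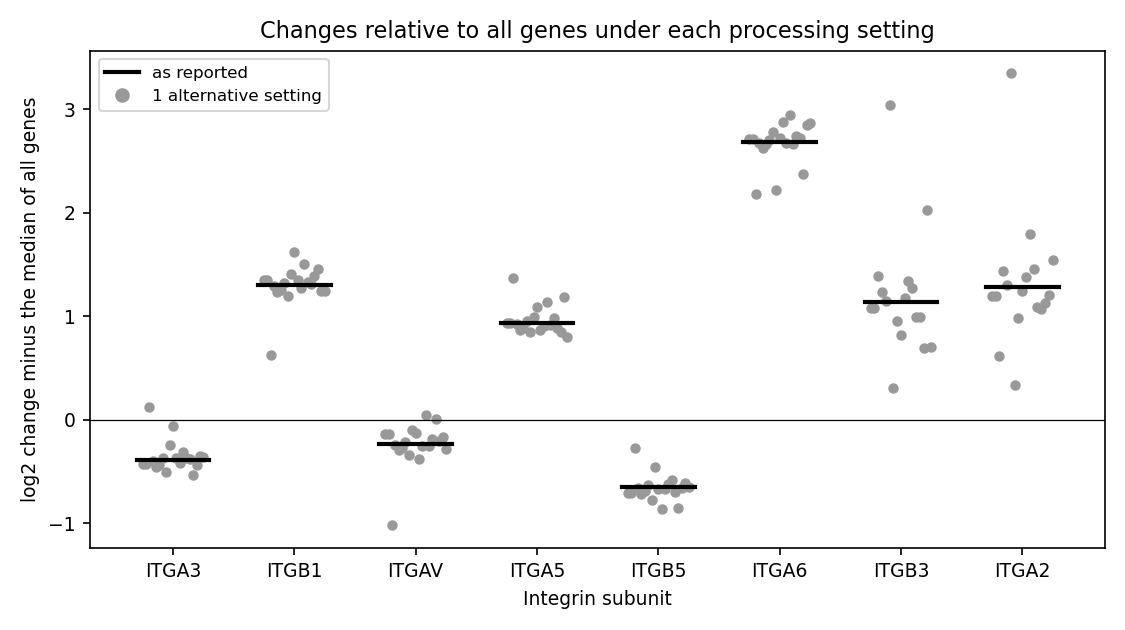
Log2 change of each integrin subunit minus the median of all genes in the rRNA-depleted libraries, as reported (bars) and under each alternative setting (points). ITGB1, ITGA5 and ITGA6 stay above 0 in every setting, ITGB5 stays below 0, ITGA3 lies below 0 except with the GC trend removed (0.12), and ITGAV ranges from -1.02 with the GC trend removed to 0.05 in voom.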

How the data were processed

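The deposited data were 2 tables. One gives rRNA-depleted RNA as TPM, a share of transcripts corrected for gene length, in which the authors scaled every library to 1000000. The other, for poly(A) RNA, is 1 comparison by the authors. Its columns, per the file headers, are a mean normalized count (signal over the pooled libraries), the log2 fold change and its SE, a Wald score, and the p-value before and after adjustment, and none was retested here. Trimmomatic, STAR, DESeq2 and hg38 are named in the submitters' processing notes, and counting tool, annotation and use of strand are not given in the sources used here. Input was 100 ng RNA per the labels' protocols. Samples were grouped by title, and each TPM column was assigned through the genotype and number in its name. The number of unused columns of single-library values was 0.

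Exon lengths and positions came from GENCODE 29 (GRCh38), which matched 56927 of 60669 identifiers (93.8%). GC content and GGACT sites came from 1 transcript per gene (principal, then coding, then longest). The worth of 1 read was the commonest value of TPM times length, and 90.9% of values above 0 were then whole to within 0.02 reads. Limma 3.58.1 in R 4.3.3 (lmFit, eBayes with trend) was run on log2(TPM + 1) for each gene that reached 1 TPM in 3 or more libraries, and the step was tested on simulated data, where genes with few reads gave false calls. For that reason an alternative with a mean of at least 5 recovered reads was added after the data were seen. The pair of knockout-labelled libraries was averaged on the test restricted to whole reads, which was chosen after the test over all genes had given a small p. Exact permutation tests and exact intervals of read ratios used scipy 1.17.1. The genes and lists were chosen with earlier results of these data known. Named genes are the 8 subunits, METTL3, the cell type markers, up to 3 genes per direction and list with the largest called change at a mean of at least 5 TPM, and the 3 genes nearest to ITGB1. AC068234.1 was named after its values were seen. No molecular identifiers are stated, so intervals describe counting error alone.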

Additional observations from a re-analysis of the deposited data

How the results depend on the processing

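The direction of ITGB1, ITGA5 and ITGA6 held under every alternative run. ITGA2 and ITGB3 were tested in 17 alternatives and stayed positive there. Both entered the test only through the group in which they are high, so their direction is no support. ITGB1, ITGA5 and ITGA6 each kept their call in 18 of 19 alternatives, the exception being the fit without knockout-labelled library 3. The number of subunits called, 4 as reported, was 2 at an adjusted p threshold of 0.01, and leaving out 1 library at a time gave 0 to 4, where 0 was the value without knockout-labelled library 3. Voom, with knockout-labelled library 3 included, called 5, the added one being ITGA3, which was lower. It called 3714 of all 14673 genes higher and 3446 lower, so its count is no further support for a rise. Without that library 1663 of all genes were called, against 5220. In the authors' deposited table the count of 1 was 0 at a threshold of 0.01 and 0 when a log2 change of 0.5 or more in size was asked for, and 3 of the 8 had an unadjusted p under 0.05. Shares of all genes are given here at an adjusted p of 0.05 only. The counts of subunits at the other thresholds, in either library type, therefore cannot be set against all genes. ITGA3 was -0.33 with median ratio scaling, -0.18 with upper quartile scaling, -0.29 with voom, -0.087 with reads thinned, and between -0.040 and 0.063 when 1 library was left out. ITGAV was -0.55 with the GC trend removed, -0.17 with median ratio scaling, -0.015 with upper quartile scaling, -0.042 with quantile normalization and -0.096 with reads thinned. ITGB5 was 0.20 with the GC trend removed. The cause of these changes was not tested. The difference in the share of ITGA3 was -14.2 percentage points over all subunits, that of ITGB3 was -0.019 to 0.653 with 1 library left out, and the difference in the ratio of alpha to beta subunits was -1.87 on reads not divided by length, against -1.16.

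Same-numbered libraries of the 2 genotypes did not deviate together (correlations of 0.02, -0.02 and 0.01 over genes), so the numbers give no pairing. With the 6 libraries as separate samples ITGA3 was -0.00038 with and without the replicate block, which left ITGB1 at 1.77, ITGA5 at 1.36 and ITGA6 at 3.14, and 4 subunits called with and without it. It called 6037 of all 14789 genes, against 6880 without it. The depth limits ITGA2 and ITGB3, which hold 1 and 2 wild-type reads.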
